A study of Mus musculus with 2 samples.

Results

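The genes described here encode collagens, laminins and other proteins of the basement membrane and the fibrous extracellular matrix. They were taken by symbol: every collagen chain (Col followed by its type and chain number), every laminin alpha, beta and gamma chain, the nidogens Nid1 and Nid2, the heparan sulphate proteoglycans Hspg2 (perlecan) and Agrn (agrin), Fn1 (fibronectin), Sparc, Spock2, and the small leucine-rich proteoglycans Dcn (decorin), Lum (lumican) and Bgn (biglycan). Of 65 such symbols among 31253 features, 54 had at least 30 unique molecular identifier (UMI) counts over both libraries and are described. The other 11 symbols lay below that minimum, and 1 of them, Col24a1, had no UMI. Just inside the minimum lay Col9a2 with 36 UMIs and Col6a5 with 42, and just outside it Col17a1 with 26 and Lamb3 with 20.

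RNA of single cells was captured with BD Rhapsody from infarcted mouse brain taken 3 days after transient middle cerebral artery occlusion (tMCAO), in which a filament blocks the main artery of one hemisphere for a limited time before blood flow returns. The library flox is the control and carries the floxed allele by its title (the design text has WT), and the library cKO carries a conditional knockout of Hilpda, which encodes a lipid droplet protein induced by hypoxia. The tissue was cut and digested with collagenase before cells were captured. The labels name neither the Cre driver nor the deleted exons, and say nothing of strain, age, sex or how many animals went into a library.

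After filtering, 8061 flox cells and 6983 cKO cells were kept, with medians of 6993 and 8747 UMIs per cell. The libraries shared 56 cell barcodes, and leaving out the cells with those barcodes changed no count of matrix genes given here. Hilpda itself stood at 273 counts per 1000000 UMIs (CPM) in the flox cells and 214 in the cKO cells. It was at 53.3 and 57.1 CPM in endothelial-like cells, 143 and 238 in mural-like cells, 72.1 and 117 in fibroblast-like cells, 104 and 240.4 in microglia-like cells, and 474 and 269.6 in monocyte or macrophage-like cells. Because the deleted exons are not known, reads may come from parts that remain, and these levels do not check the deletion. With 1 library per group there is no replicate, so no test was made, and all intervals are 95% intervals that cover counting error only. A difference between the libraries may be one between animals, dissections or preparations, and these cannot be told apart from genotype.

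Basement membranes are thin sheets on which endothelial, epithelial and Schwann or muscle-type cells rest. Laminin trimers and a network of collagen IV form their layers, nidogens and perlecan link the layers, and in the brain endothelial cells, pericytes and astrocytes all contribute to the sheet around vessels. Fibrillar collagens I, III and V build the fibres of scars and of the meninges and are made mainly by fibroblasts, with decorin, lumican and biglycan bound to the fibres, whereas fibronectin and Sparc belong to the provisional matrix of wounds.

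The sequences upstream of 6 genes are shown because their RNA carries the differences and the class patterns described below: Spock2, Hspg2 and Lama5 among genes lower in vessel cells of the cKO library, Col15a1 as the gene higher in its endothelial-like cells, and Bgn and Col3a1 as genes of mural-like and fibroblast-like cells. They come from RefSeq on GRCm38.p6, read 5′ to 3′ on the strand of the gene, and end at the annotated start or before the first exon base in GENCODE. Capitals mark matches on either strand to 4 motifs. The TATA box was searched as TATAAA and the CCAAT box by its own letters. For the GC box the letters searched were GGGCGG. The remaining motif, a CT-rich box, was searched as CCCTCCCC, and overlapping or adjoining matches run together.
Spock2: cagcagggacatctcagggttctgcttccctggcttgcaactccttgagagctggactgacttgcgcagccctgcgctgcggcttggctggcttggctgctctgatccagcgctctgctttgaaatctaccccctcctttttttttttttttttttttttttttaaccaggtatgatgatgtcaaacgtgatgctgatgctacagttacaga
Hspg2: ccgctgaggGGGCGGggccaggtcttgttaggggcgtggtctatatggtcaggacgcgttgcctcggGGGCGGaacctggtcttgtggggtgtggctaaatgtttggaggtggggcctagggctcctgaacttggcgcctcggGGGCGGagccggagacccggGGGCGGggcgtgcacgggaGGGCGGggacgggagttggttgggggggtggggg
Lama5: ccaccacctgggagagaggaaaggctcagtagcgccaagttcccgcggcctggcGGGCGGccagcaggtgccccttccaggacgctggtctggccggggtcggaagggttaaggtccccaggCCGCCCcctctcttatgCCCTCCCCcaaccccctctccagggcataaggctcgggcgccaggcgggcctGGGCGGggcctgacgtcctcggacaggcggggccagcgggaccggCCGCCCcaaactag
Col15a1: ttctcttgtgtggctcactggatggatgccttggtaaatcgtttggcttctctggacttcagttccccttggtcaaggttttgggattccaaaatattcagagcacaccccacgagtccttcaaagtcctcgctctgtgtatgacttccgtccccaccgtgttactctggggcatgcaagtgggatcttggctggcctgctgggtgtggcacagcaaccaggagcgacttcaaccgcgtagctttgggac
Bgn: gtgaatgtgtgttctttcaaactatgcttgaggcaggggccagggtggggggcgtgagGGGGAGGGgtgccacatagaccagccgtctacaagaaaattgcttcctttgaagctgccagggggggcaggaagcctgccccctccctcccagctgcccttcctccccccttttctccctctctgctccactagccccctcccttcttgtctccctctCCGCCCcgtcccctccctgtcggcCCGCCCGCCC
Col3a1: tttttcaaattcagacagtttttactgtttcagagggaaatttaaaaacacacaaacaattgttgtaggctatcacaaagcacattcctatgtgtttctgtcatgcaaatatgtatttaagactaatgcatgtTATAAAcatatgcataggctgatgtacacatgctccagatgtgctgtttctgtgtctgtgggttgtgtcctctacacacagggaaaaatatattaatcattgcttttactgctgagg

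The Spock2 stretch was chr10:60106007-60106218 on the plus strand and the Hspg2 stretch was chr4:137468553-137468768 on the plus strand. The Lama5 window was chr2:180225860-180226109 on the minus strand, and the Col15a1 window was chr4:47207762-47208011 on the plus strand. The Bgn window was chrX:73483351-73483600 and the Col3a1 window chr1:45311288-45311537, both on the plus strand. The Hspg2 stretch held 5 GC boxes and no TATA box, whereas the Col3a1 window, at 35.2% GC, held a TATA box and none of the other motifs. No match was present in the Spock2 or Col15a1 letters. Of the 54 genes, 36 had a 250-base window in the table. A GC box was present in 24 of these 36 (66.7%), against 32.7% of all 32851 windows, and a CT-rich box in 12 (33.3%), against 9.69%. A CCAAT box was present in 11 (30.6%), against 33.8%, and a TATA box in 3 (8.33%), against 12.4%. The median GC content of the 36 windows was 62.0%, against 52.4% over all windows. Col4a1 and Col4a2 lie head to head on chromosome 8 and overlap by 22 bases at their starts; Col4a4 and Col4a3 on chromosome 1 start 71 bases apart, and Col4a6 and Col4a5 on the X chromosome start 1308 bases apart.

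Apart from Fn1 and Sparc, most matrix RNA lay in few cells. Endothelial-like, mural-like (pericytes and smooth muscle) and fibroblast-like cells together were 8.75% of flox cells and 10.8% of cKO cells, and they held 38.6% (38.4 to 38.9) of the UMIs of the 54 genes in flox and 56.3% (56.1 to 56.5) in cKO. Without Fn1 and Sparc the same cells held 76.0% and 81.6%. Fibroblast-like cells were 0.409% of flox cells and 1.46% of cKO cells, and held 4.40% and 14.2% of the matrix UMIs. Microglia-like cells held 30.03% and 16.7%, almost all of it Sparc and Fn1 RNA: without those genes their share was 6.79% and 3.28%. Monocyte or macrophage-like cells, the most numerous class, held 16.6% and 14.3%, and cycling cells 10.65% and 7.95%.

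**Figure D1:**
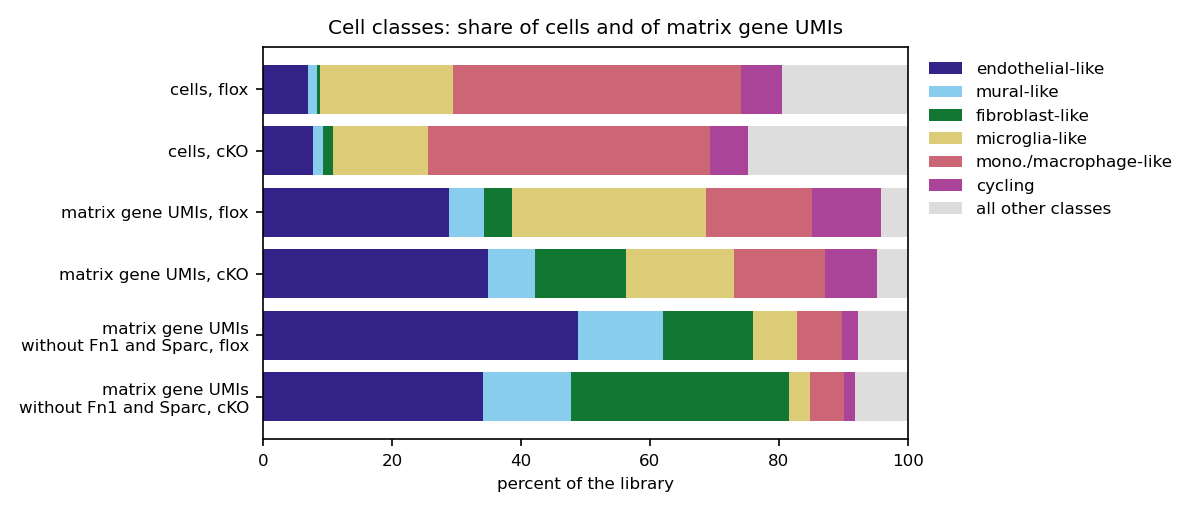
Stacked bars show, for each library, the percent of cells, of UMIs of the 54 matrix genes, and of those UMIs without Fn1 and Sparc, that lay in each cell class. Endothelial-, mural- and fibroblast-like cells are narrow in the bars of cells (8.75% of flox and 10.8% of cKO cells) and wide in the bars of matrix UMIs (38.6% and 56.3%).

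Each gene was compared across 16 classes, those with 20 or more cells per library, as CPM of the UMIs summed over the class. For 46 of the 54 genes the class with the highest level was the same in both libraries. It was the fibroblast-like class for 16 genes, the mural-like class for 13, the endothelial-like class for 5, the choroid plexus epithelial and ependymal classes for 3 each and the oligodendrocyte precursor class for 2. Col27a1 was highest in microglia-like, Col2a1 in oligodendrocyte-like, Col9a2 in astrocyte-like and Col11a2 in neutrophil-like cells. No minimum of UMIs in the class was set for these places, and the last 2 rested on few counts. Col9a2 had 34 UMIs in all kept cells, the largest share (35.3%) in oligodendrocyte-like cells. Col11a2 had 4 flox and 11 cKO UMIs in neutrophil-like cells, and 55.3% of its UMIs lay in monocyte or macrophage-like cells. The other 8 genes changed place between libraries: Col14a1, Col4a5, Col4a4, Lamc3, Lama3, Col4a6, Col20a1 and Col26a1. These counts describe clusters made without the 54 genes. UMI levels are not divided by transcript length, so levels are set side by side within a gene and not between genes.

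**Figure D2:**
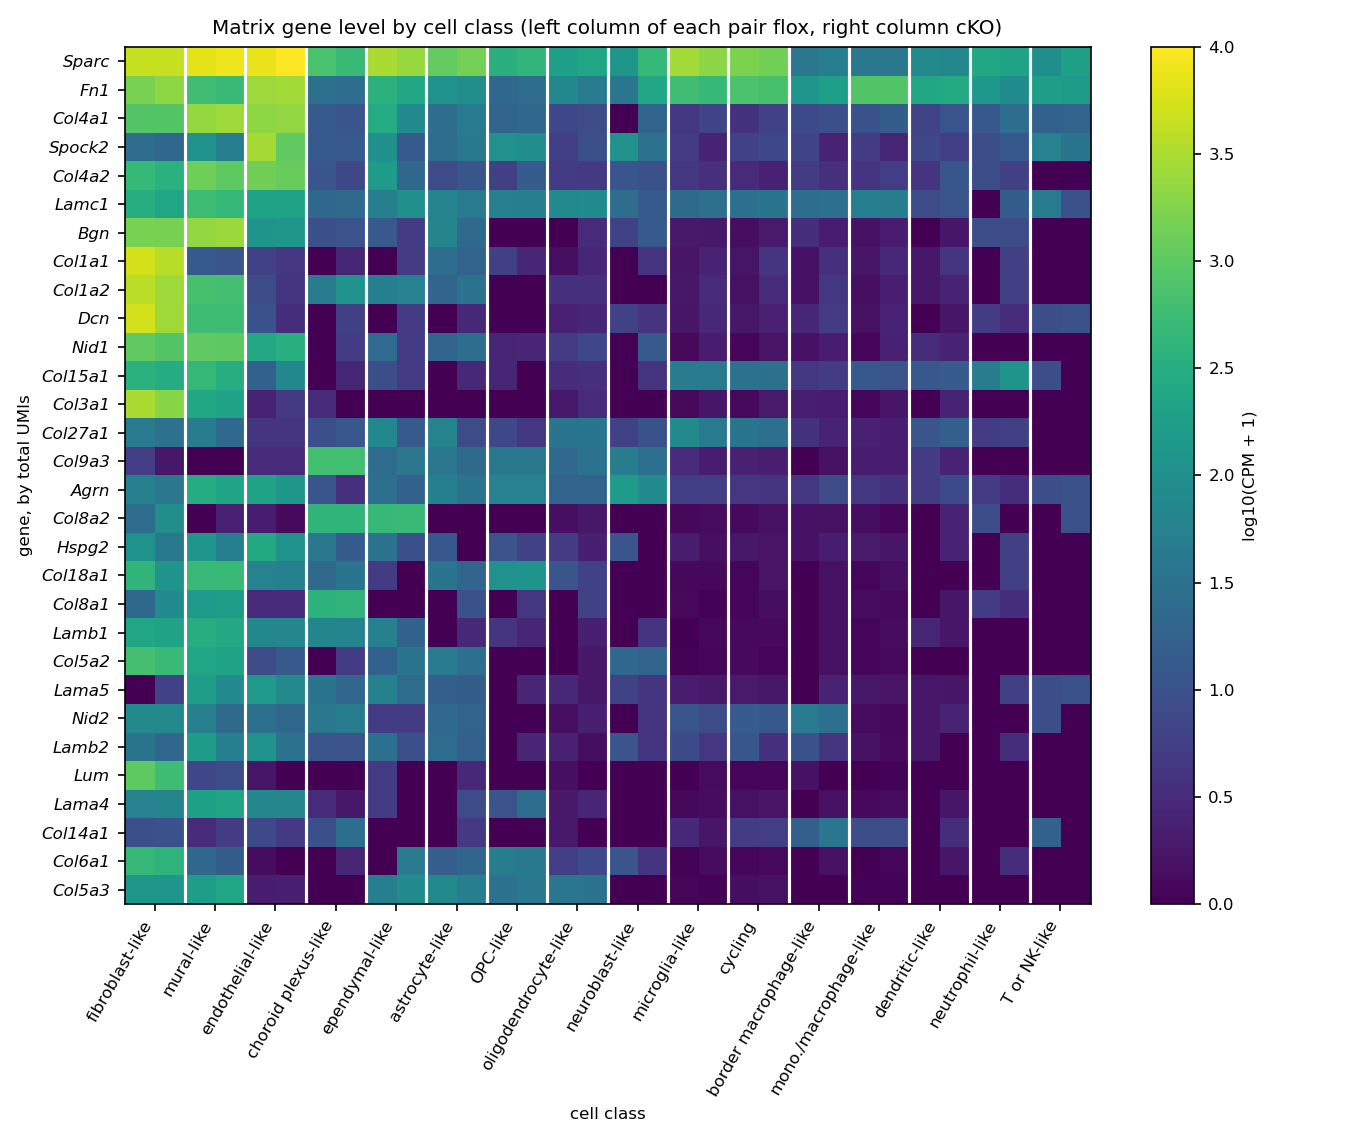
The heat map gives log10(CPM + 1) of the 30 matrix genes with the most UMIs (rows) in 16 cell classes (column pairs, flox left and cKO right). Col1a1, Col3a1 and Lum are bright in the fibroblast-like pair, Col4a1 and Col4a2 in the mural- and endothelial-like pairs, Col9a3 in the choroid plexus pair and Sparc in the vessel, fibroblast-, ependymal- and microglia-like pairs.

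The vessel classes carried their own markers. All 11 endothelial markers were detected in endothelial-like cells (564 flox and 540 cKO cells), with a summed level of 15952 and 12191 CPM, and pericyte markers summed to 205 and 110.0 CPM there. Mural-like cells (108 and 111) had all 10 pericyte markers at 18310 and 11740 CPM and all 9 smooth muscle markers at 7487 and 6037. Of the fibroblast markers in the feature list, 8 were detected in fibroblast-like cells in each library, at 1205 and 719.9 CPM; Dpt and Igf2 were at 0 UMIs in both. In the fibroblast-like class microglia markers summed to 1188 and 871 CPM, monocyte or macrophage markers to 751 and 721, endothelial markers to 407 and 368, and pericyte markers to 327 and 172, and their part in the values below was not tested.

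The first comparison was of collagen IV, the network former of the basement membrane. In endothelial-like cells Col4a1 stood at 2058 CPM in flox and 2238 in cKO, a log2 ratio of cKO over flox of 0.12 (0.07 to 0.17). Col4a2, its partner chain, stood at 1366 and 1169 CPM (−0.23, −0.29 to −0.16). With the cKO clusters of this class weighted by their share of UMIs in flox, the ratios were −0.08 for Col4a1 and −0.43 for Col4a2. In mural-like cells Col4a1 stood at 2357 and 2564 CPM (0.12) and Col4a2 at 1304 and 1006 (−0.38). Both chains differed by less than 2-fold between libraries in the cells that held most of their RNA: 72.4% of Col4a1 and 77.6% of Col4a2 UMIs lay in endothelial-like cells. For shares of cells, here and below, cells were thinned to 1000 UMIs and cells with fewer were left out. Thinned shares therefore cover fewer cells than unthinned ones. Thinned in this way, 67.65% of flox and 83.2% of cKO endothelial-like cells had a Col4a1 UMI (85.3% and 90.6% of all cells unthinned). An endothelial-like cluster with a median of 838.5 UMIs per cell made up 10.1% of the class in flox and 19.8% in cKO. The part of the cluster mix in these shares was not tested. In monocyte or macrophage-like cells, taken as the class to compare with, the thinned share was 0.811% and 1.46%. Median depths were 3958 and 5599.5 UMIs in the former class and 7925 and 9984 in the latter. The other chains were scarce: Col4a3 and Col4a4, chains of epithelial basement membranes, had most of their UMIs in choroid plexus epithelial-like cells (53.6% for Col4a4), and Col4a5 and Col4a6 had their largest shares in fibroblast-like cells (30.5% and 34.9%).

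A gene was called higher or lower when the libraries differed at least 2-fold, the higher one held at least 30 UMIs and the counting interval excluded equal levels. In endothelial-like cells 1 of the 18 matrix genes with enough UMIs was higher in cKO (Col15a1), where 0.839% of all genes were, and 3 were lower (Spock2, Hspg2 and Lamb2), where 6.38% were. In mural-like cells none of 25 was higher, against 4.43% of all genes, and 4 were lower (Spock2, Hspg2, Lama5 and Lamb2), against 4.06%. The median log2 ratio of the matrix genes was −0.06 in endothelial-like cells, beside −0.12 for all genes, and −0.25 in mural-like cells, beside −0.01.

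Laminin chains differed in the size of their change. Lamb2, the beta chain of mature vessel laminins, stood at 113 CPM in flox and 32.0 in cKO endothelial-like cells (−1.82, −2.13 to −1.52) and at 160 and 51.7 in mural-like cells (−1.63). Lama5, an endothelial alpha chain, stood at 144 and 74.7 CPM in endothelial-like cells (−0.95, short of 2-fold) and fell from 172 to 82.7 in mural-like cells (−1.06). Lama4, the other endothelial alpha chain, was level in endothelial-like cells, at 71.0 and 71.1 CPM. Lamb1 stood at 71.4 and 69.1 CPM and Lamc1 at 206 and 198 there. Lama2, which was highest in mural-like cells, stood at 182 and 181 CPM in them. Lama1 was found mostly in fibroblast-like cells, which held 84.9% of its UMIs, and Lama3 and Lamc3 had 105 and 118 UMIs in all. Among these chains the size rule was passed by Lamb2 in both vessel classes and by Lama5 in mural-like cells, while Lama4, Lamb1, Lamc1 and Lama2 were within 2-fold. The Lama5 call in mural-like cells was lost when each cell had equal weight (−0.51).

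Among the linkers, Hspg2 stood at 269 CPM in flox and 110.0 in cKO endothelial-like cells (−1.29, −1.47 to −1.12) and at 126 and 51.7 in mural-like cells (−1.29). Nid1, which joins laminin to collagen IV, stood at 261 and 319 CPM in endothelial-like cells (0.29) and at 1059 and 1026 in mural-like cells (−0.05). Its relative Nid2 stood at 29.1 and 20.5 CPM in endothelial-like cells and at 53.9 and 23.3 in mural-like cells, the latter on 26 and 18 UMIs. Agrn stood at 199 and 131 CPM in endothelial-like cells (−0.60) and at 299 and 212 in mural-like cells (−0.49).

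Genes rich in GC near the 3′ end were lower in the cKO library across the transcriptome. Among all genes tested in endothelial-like cells, 33.1% of those with 55 to 60% GC in the last 500 bases of the transcript were lower. Of those with 60% or more, 59.0% were lower, against 1.90% below 40%. Hspg2 and Lamb2 (57.6% GC) lie in those classes, and Spock2 (48.8%) and Lama5 (52.2%) do not. Set against genes of like GC, the Hspg2 ratio in endothelial-like cells was −0.78, which ends its call. The Lamb2 ratio became −1.31 in endothelial-like and −1.45 in mural-like cells, and its call was kept in both.

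Spock2 encodes testican-2, a proteoglycan of the Sparc family. Endothelial-like cells held 94.1% of its UMIs, and its level there fell from 2941 CPM in flox to 1069 in cKO (−1.46, −1.51 to −1.41). Thinned to 1000 UMIs, 61.9% of flox and 43.8% of cKO endothelial-like cells had a Spock2 UMI (81.9% and 75.2% unthinned), against 0.448% and 0.166% of monocyte or macrophage-like cells. The class held 3 clusters, and their mix differed between libraries. A cluster led by Ackr1, Vwf and Selp, genes of venules, made up 51.6% of the class in flox and 64.6% in cKO. A cluster led by Slco1a4, Flt1 and Abcb1a, genes of blood-brain barrier capillaries, made up 38.3% in flox and 15.6% in cKO. Spock2 stood at 8961 CPM in flox and 6514 in cKO in the capillary cluster, at 751.5 and 549.7 in the venule cluster, and at 348 and 414 in a cluster led by Egfl7 and Sox18. No cluster reached 2-fold, and with the cKO clusters weighted by their share of UMIs in flox the class ratio was −0.46 in place of −1.46.

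**Figure D3:**
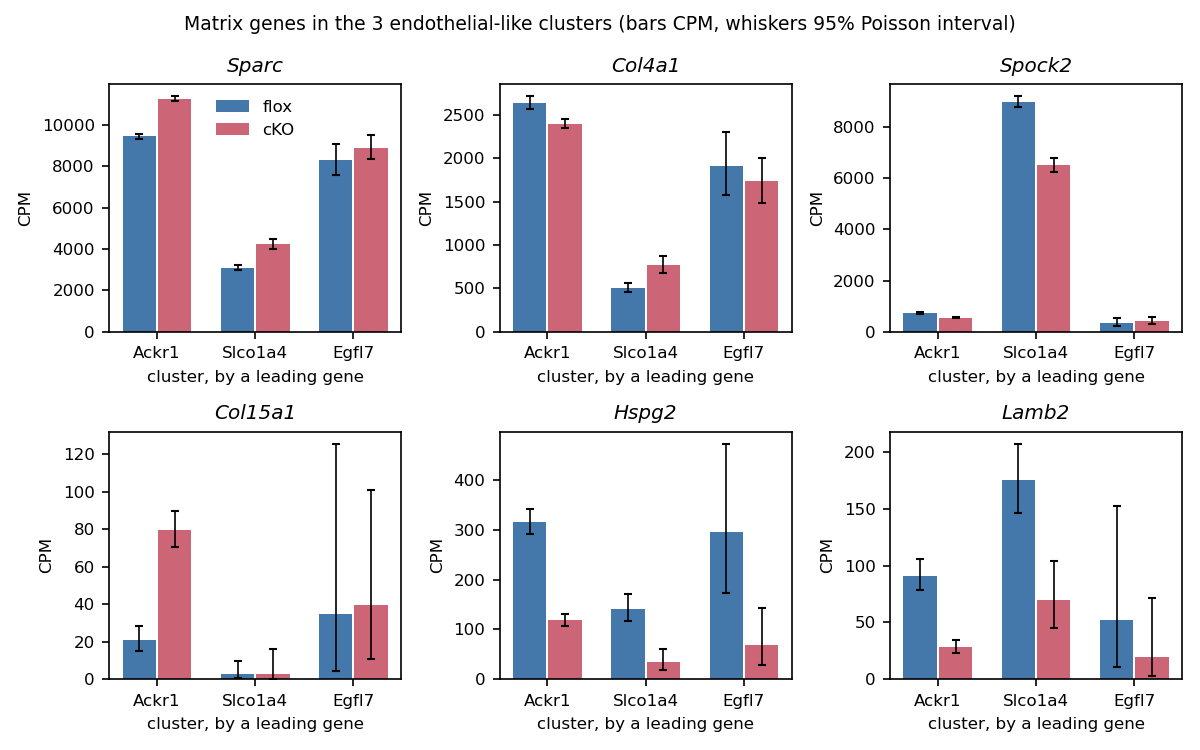
Bars give CPM of 6 matrix genes in the 3 endothelial-like clusters (named by a leading gene) for flox and cKO, with 95% Poisson whiskers. Spock2 is tallest in the Slco1a4 cluster, at 8961 and 6514 CPM, the Hspg2 and Lamb2 bars are lower in cKO in the Ackr1 and Slco1a4 clusters, and Col15a1 is higher in cKO in the Ackr1 cluster (21.0 and 79.7 CPM).

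Hspg2 and Lamb2 were lower in cKO within clusters too, in values that were not set against genes of like 3′ GC. Hspg2 fell from 316 to 119 CPM in the venule cluster and from 142 to 35.0 in the capillary cluster, the latter on 107 and 12 UMIs. Lamb2 fell from 91.3 to 28.6 and from 175 to 70.0 in the same clusters. At the flox cluster mix the cKO level of Hspg2 was 95.2 CPM, against 269 in flox, and the Lamb2 ratio was −1.52. Sparc was higher in cKO by less than 2-fold in the venule cluster, at 9432 and 11262 CPM, and in the capillary cluster, at 3087 and 4238. In the Egfl7 cluster it stood at 8282 and 8895 CPM, with an interval that included equal levels (0.10, −0.06 to 0.27). Over the class it stood at 7709 and 10584 CPM (0.46). Fn1 stood at 2590 and 2762 CPM (0.09). At the flox cluster mix the ratios were 0.28 for Sparc and 0.00 for Fn1. Scaling endothelial-like cells by TMM, whose shift was −0.1367, raised the ratios: Sparc came to 0.59, Fn1 to 0.23, Col4a1 to 0.26 and Col4a2 to −0.09, and Lamc1 turned from −0.06 to 0.08. The median over the matrix genes then turned from −0.06 to 0.08 as well, and the counts of 1 higher and 3 lower were kept.

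Col15a1 encodes a collagen of the multiplexin family that bridges basement membranes to the underlying fibres. In endothelial-like cells it stood at 16.3 CPM (46 UMIs) in flox and 71.9 (281 UMIs) in cKO, a log2 ratio of 2.14 (1.68 to 2.62). Its RNA was concentrated in few cells. Cells with at least 5 UMIs numbered 20 of 540 in cKO and held 256 of the 281 UMIs (91.1%), and 3 of 564 in flox, which held 15 of 46 (32.6%). Pericyte markers in these cells summed to 3.27 CPM in cKO and 0 in flox, below the 119 and 207 CPM of the other endothelial-like cells, and fibroblast markers were at 0, while endothelial markers stood at 8784 CPM in cKO and 10267 in flox, also below the 12481 and 16011 of the other endothelial-like cells. The thinned share of endothelial-like cells with a Col15a1 UMI was 0.789% in flox and 3.70% in cKO (3.90% and 7.41% unthinned). In monocyte or macrophage-like cells it was 1.23% and 1.19%. The flox share of endothelial-like cells lay below that of this comparison class, and the part of background RNA in it was not tested. Microglia-like cells, which held the largest share of Col15a1 UMIs (33.2%), had a thinned share of 5.32% and 4.89%. Microglia markers summed to 380 and 208 CPM in the endothelial-like class, and their part in the Col15a1 result was not tested. In mural-like cells, where its level was highest, Col15a1 stood at 458 and 308 CPM (−0.57). Its relative Col18a1, the precursor of endostatin, stood at 59.0 and 56.6 CPM in endothelial-like and 516 and 499 in mural-like cells.

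Mural-like cells, which wrap capillaries and arterioles, carried both basement membrane and fibre genes. Sparc stood at 6740 and 7914 CPM over the class and Fn1 at 599 and 516. Lama4 stood at 197 and 215 CPM and Lamb1 at 305 and 255. Col1a2 stood at 688 and 629 CPM, Col3a1 at 245 and 202 and Dcn at 564 and 569. Col5a3, a collagen V chain that was highest in this class, stood at 172 and 229 CPM. Apart from the 4 lower genes, the libraries were within 2-fold for each of the 25 genes with enough UMIs. Spock2 in this class rested on few cells: 1 cell held 41.8% of its UMIs in flox and 30.8% in cKO.

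Within the mural-like class, cells led by pericyte markers (65 flox and 69 cKO) and cells led by smooth muscle markers (43 and 41) differed in matrix RNA. Sparc stood at 9076 and 9231 CPM in the pericyte-led cells and at 2387 and 4645 in the smooth muscle-led cells. Col4a1 stood at 3167 and 3017 CPM in the former and 849 and 1454 in the latter, and Bgn at 2781 and 2763 against 1277 and 1733. All of the flox Col15a1 and Dcn UMIs of the class lay in the pericyte-led cells, at 704 and 866.5 CPM. Lama5 and Lamb2 had the reverse pattern in flox, with 416 and 315 CPM in smooth muscle-led cells against 41.4 and 76.5 in pericyte-led cells. The part of this mix in the ratios of the whole class was not tested.

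**Figure D4:**
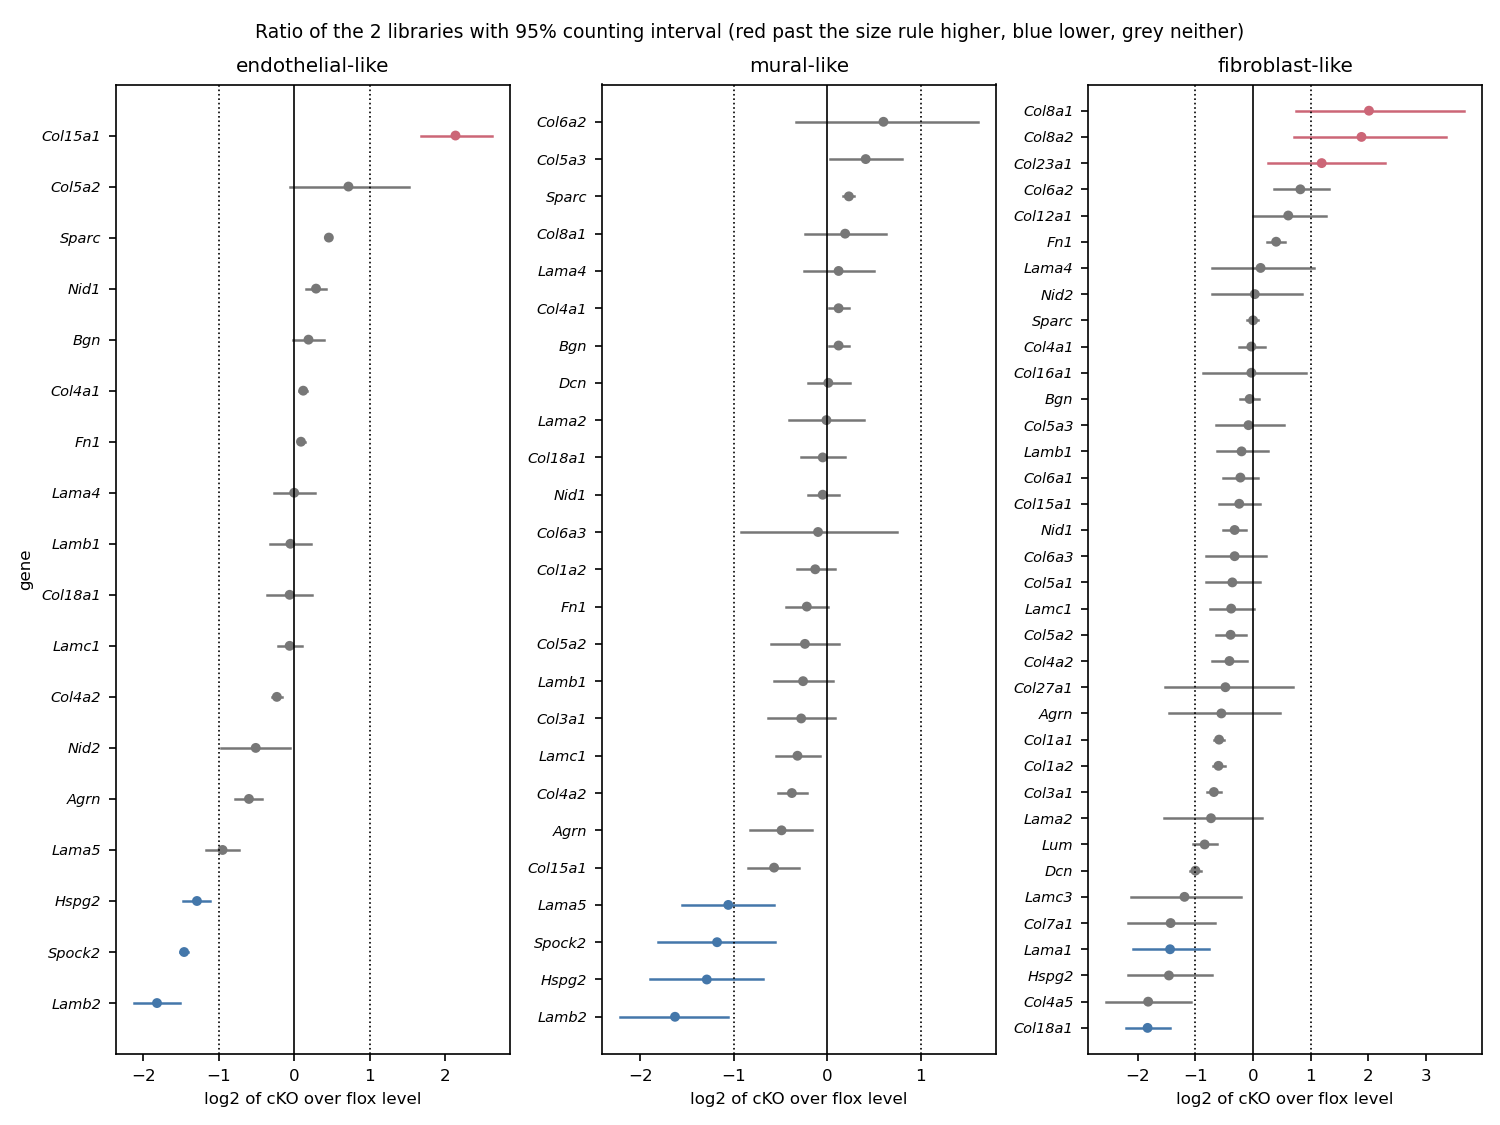
Points give the log2 ratio of cKO over flox for matrix genes with at least 30 UMIs in 1 library of the class, with 95% counting intervals, in endothelial-, mural- and fibroblast-like cells; dotted lines mark 2-fold. Col15a1 is the only red point in the endothelial panel (2.14), Spock2, Hspg2 and Lamb2 are blue in the endothelial and mural panels, and most fibroblast points lie left of 0.

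Fibroblast-like cells held most RNA of collagens I and III. They contained 96.4% of Col1a1 UMIs, 77.3% of Col1a2, 89.5% of Col3a1, 83.3% of Dcn and 97.4% of Lum, although the class had 33 cells in flox and 102 in cKO. Col1a1 stood at 5596 CPM in flox and 3721 in cKO (−0.59, −0.68 to −0.50), Col1a2 at 3903 and 2581 (−0.60) and Col3a1 at 3067 and 1914 (−0.68), so the 3 chains were each lower in cKO by less than 2-fold. Among fibroblast-like cells with at least 1000 UMIs, thinned to that depth, 85.0% in flox and 82.1% in cKO had a Col1a1 UMI. In monocyte or macrophage-like cells the thinned share was 0.0839% and 0.166%. Over all fibroblast-like cells without thinning the shares were 81.8% and 83.3%, which cover more cells than the thinned shares. Median depth in the class was 2637 UMIs in flox and 10052.5 in cKO.

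The proteoglycans of the fibres followed the same order. Dcn stood at 5278 CPM in flox and 2644 in cKO (interval of the log2 ratio −1.09 to −0.90), just short of 2-fold, and Lum at 1005 and 563 (−0.84). Bgn, in contrast, was level at 1557 and 1498 CPM in fibroblast-like cells and at 2256 and 2458 in mural-like cells, its highest class. The collagen VI chains, which form beaded microfibrils, stood at 467 and 400 CPM for Col6a1, 182 and 323 for Col6a2, and 170 and 136 for Col6a3. Collagen V chains, which set fibril width, stood at 208 and 162 CPM for Col5a1 and 662 and 505 for Col5a2.

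Fibroblast-like cells also held wound and basement membrane RNA. Sparc stood at 4463 and 4457 CPM, and Fn1 at 1561 and 2056 (0.40, 0.24 to 0.56). Nid1 stood at 1056 and 845 CPM (−0.32), Nid2 at 76.4 and 77.9, Col4a1 at 853 and 836, and Col4a2 at 471 and 354 (−0.41). Fn1 and Col6a2 were above 0 on the log2 scale, where the fibrillar chains lay below it.

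By the size rule 3 of 36 matrix genes were higher in cKO fibroblast-like cells (Col8a2, Col8a1 and Col23a1), where 4.70% of all genes were, and 2 were lower (Col18a1 and Lama1), where 1.79% were. With 33 flox cells the class lay under the 100 cells set for a comparison, so these values are given for description. Col18a1 stood at 416 and 117 CPM (−1.83), and Lama1, an alpha chain of embryonic and meningeal basement membranes, at 132 and 48.4 (−1.44). Col8a2 and Col8a1, the short-chain collagens of endothelial and corneal membranes, stood at 25.5 and 93.5 CPM and at 21.2 and 85.3 CPM, on 6 and 5 flox UMIs. A subset of 11 flox and 33 cKO cells led by Igfbp5 and Prg4 held 113 of the 114 Col8a2 UMIs of the class in cKO, 91 of the Col8a1 UMIs and 97 of the Col23a1 UMIs. With at most 10% mitochondrial UMIs per cell, which left 22 flox and 60 cKO cells, Col8a2 and Col23a1 turned to −1.14 and −0.46. In the larger subset, led by Aldh1a2 and Tfpi2 (22 and 69 cells), Col1a1 stood at 5940 and 4103 CPM and Dcn at 6078 and 3246. The median over matrix genes in the class was −0.36, beside 0.00 for all genes, and 34 of 43 lay below 0.

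Outside vessels and fibroblasts, 2 genes made up most matrix RNA. Sparc, which binds collagen and is a known product of resting microglia, stood at 2793 CPM in flox and 2046 in cKO microglia-like cells (−0.45, −0.47 to −0.43). The class consisted mainly of a cluster led by Siglech and P2ry12, genes of resting microglia, with 746 flox and 281 cKO cells, and a cluster led by Cd5l and Lpl, with 847 and 719. Sparc stood at 6276 and 6907 CPM in the former and 1521 and 1271 in the latter. At the flox cluster mix its ratio was −0.02. Col27a1, a fibrillar collagen found mostly in microglia-like cells (65.5% of its UMIs), stood at 82.1 and 42.3 CPM (−0.95). In the P2ry12 cluster it stood at 211 and 147 CPM and in the Cd5l cluster at 38.7 and 25.9, and at the flox cluster mix the ratio was −0.51. Fn1 stood at 583 and 472 CPM in the class (−0.30). By the size rule no matrix gene of 15 was higher, against 0.653% of all genes, and 3 were lower (Spock2, Lamb2 and Col9a3), against 5.84%. Their highest level was 6.96 CPM, of Lamb2 in flox. Against genes of like 3′ GC the count of lower genes was 1, with no share of all genes computed there. When single cells were instead gated on markers, which put 3414 flox and 2212 cKO cells in the class, 18 of 35 matrix genes were higher, against 2.02% of all genes under the same gate. That gate placed 7 flox and 20 cKO cells of the fibroblast-like cluster among the microglia-like cells, and the part of these cells in the count was not tested.

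Monocyte or macrophage-like cells held 50.7% of all Fn1 UMIs. Fn1 stood at 822 CPM in flox and 822 in cKO, a log2 ratio of 0.00 (−0.03 to 0.02). It varied more between clusters than between libraries: 1931 and 2787 CPM in a cluster led by Plac8, Vcan and Ccr2, genes of monocytes, and 401 and 376 in a cluster led by Gpnmb and Fabp4. Lamc1, a laminin gamma chain, stood at 51.2 and 47.65 CPM on 1567 and 1506 UMIs, and this class held the largest share of its UMIs (41.8%). By the size rule 4 of 17 matrix genes were higher in cKO (Col1a1, Col1a2, Dcn and Nid1), against 0.594% of all genes, and 1 was lower (Spock2), against 5.35%. The highest level among those 4 was 1.77 CPM, of Col1a1 in cKO. With finer clustering (Leiden resolution 2) the counts were 1 higher and 0 lower, with no share of all genes computed there. After thinning, 0.166% of these cells in cKO had a Col1a1 UMI, as did 0.196% of microglia-like cells. The larger fibroblast-like class of the cKO library moved with these levels. Its part and that of background RNA were not tested.

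In the smaller immune classes few matrix genes could be compared. Fn1 stood at 127 and 181 CPM in border-associated macrophage-like, 727 and 691 in cycling, 240 and 276 in dendritic cell-like and 134 and 87.3 in neutrophil-like cells. Nid2 stood at 43.9 and 28.0 CPM in border-associated macrophage-like cells. Border-associated macrophage-like cells had 1 of 5 higher (1.17% of all genes), Col14a1 at 15.4 and 36.8 CPM (1.26), and none lower (4.80%). Cycling cells had none of 11 higher (0.505%) and Lamb2 lower (5.74%), at 10.7 and 2.75 CPM. Neutrophil-like cells had Col15a1 higher of 3 genes (2.90%), at 47.4 and 118 CPM on 12 and 50 UMIs, and none lower (3.28%). Dendritic cell-like cells had neither of Sparc and Fn1 past the rule (0.437% of all genes higher and 4.72% lower).

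Several collagens marked epithelial and glial classes. Col9a3, a fibril-associated collagen, was highest in choroid plexus epithelial-like cells, at 617 and 625 CPM, and Col8a1 and Col8a2 stood there at 388 and 395 and at 419 and 417. Col8a2 was highest in ependymal-like cells, at 485 and 514 CPM. Col11a1, a minor fibrillar collagen, stood at 206 and 242 CPM in oligodendrocyte precursor-like cells, and Col2a1, the cartilage collagen, at 57.5 and 57.9 in oligodendrocyte-like cells, which held 96.0% of its UMIs. Col6a5 was almost confined to ependymal-like cells (97.4% of its UMIs, 68.8 and 83.6 CPM). In each of these the libraries were within 2-fold of each other. Sparc, which astrocytes are known to secrete, stood at 1076 and 1482 CPM in astrocyte-like cells, 3111 and 2441 in ependymal-like cells and 347 and 428 in oligodendrocyte precursor-like cells. In neuroblast-like cells (64 and 84) Sparc stood at 128 and 461 CPM and Fn1 at 35.9 and 223, and Agrn, which neurons use at synapses, at 164 and 83.5. Apart from oligodendrocyte-like cells, these classes held fewer than 100 cells in at least 1 library, and no call was made in any of them.

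Summed over all cells, 15 of 48 matrix genes were higher in cKO, where 2.61% of all genes were, and 2 were lower (Spock2 and Lamb2), where 5.25% were. The 15 included Col1a1 (21.6 and 69.0 CPM, 1.68), Col1a2 (21.0 and 57.6, 1.46), Col3a1 (13.4 and 37.6, 1.49), Dcn (24.6 and 55.6, 1.18), Bgn (28.7 and 63.8, 1.15), Lum, Col5a1, Col5a2, Col6a1, Col6a2, Col12a1, Col23a1, Col8a1, Col8a2 and Col4a4. For some of these genes the cell filters removed a larger part of the flox UMIs than of the cKO UMIs. Col8a1 had 572 flox and 1022 cKO UMIs before the filters and 285 and 768 in kept cells. Col8a2 had 661 and 1070 before and 352 and 777 after, and Col4a4 88 and 129 before and 40 and 100 after. The part of the filters in their calls was not tested. The median over the 54 genes was 0.43, beside 0.02 for all genes. When each cKO class was weighted by its share of UMIs in flox, the median was −0.12. By a plain 2-fold cut, without the interval or the minimum of UMIs, no gene of the 54 was then higher and 6 were lower. By the same cut 15 were higher and 2 lower before weighting. The share of all genes past this cut at the flox composition was not computed, so these counts have no background beside them. Col1a1 went from 1.68 to −0.46, Dcn from 1.18 to −0.65 and Bgn from 1.15 to 0.10, and Spock2 from −1.03 to −1.41. The class weights leave the mix of clusters inside a class as it is, and at the flox mix of endothelial-like clusters Spock2 was −0.46, as given above. By the size rule with equal weight for each cell in place of each UMI, 7 were higher and 4 lower. Against genes of like 3′ GC the Lamb2 call was lost (−0.79). For these alternatives no share of all genes called was computed. The share of fibroblast-like cells moved with these all-cell values, at 0.409% of flox and 1.46% of cKO cells. So did that of choroid plexus epithelial-like cells, at 0.943% and 2.29%. The latter class held 64.4% of Col8a1, 63.8% of Col8a2 and 53.6% of Col4a4 UMIs, and mural-like cells held 48.4% of Bgn UMIs. The part of each single class in the all-cell ratios was not tested.

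**Figure D5:**
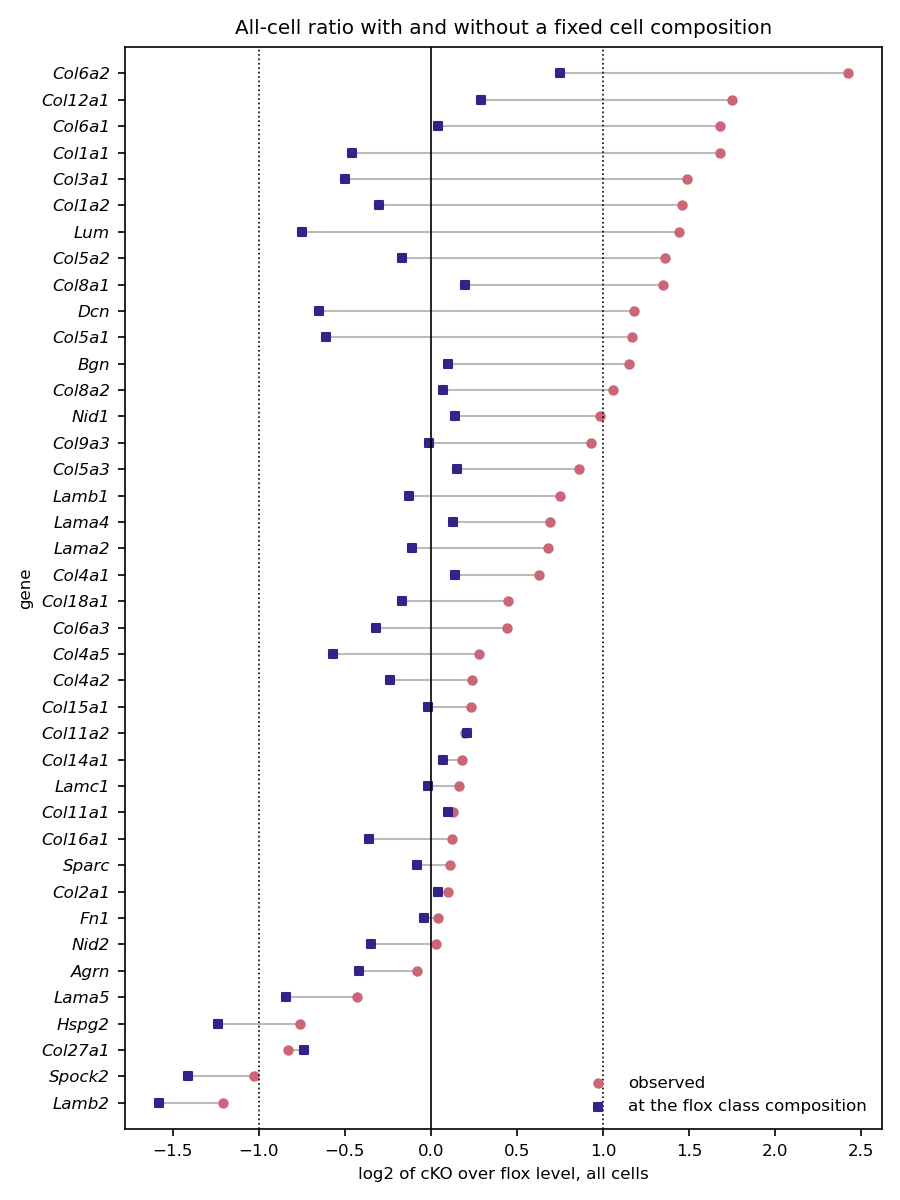
Each row is a matrix gene with at least 200 UMIs in the kept cells; the circle is the log2 ratio of cKO over flox over all cells and the square the same ratio at the flox class composition, with 2-fold marked by dotted lines. Circles of Col1a1 (1.68), Col3a1 (1.49) and Lum (1.44) lie right of 2-fold and their squares left of 0, while both Spock2 marks lie left of the lower line, at −1.03 and −1.41.

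Genes that make, process or bind the matrix were read from lists of genes outside the 54. The shares of all genes called, to be read beside their counts, were 0.839% higher and 6.38% lower in endothelial-like cells and 4.70% and 1.79% in fibroblast-like cells. Of 17 collagen-modifying enzymes and chaperones, 14 had enough UMIs in endothelial-like cells: Fkbp10, a collagen chaperone, was higher (37.3 and 90.8 CPM, 1.28) and P3h1 lower, while Serpinh1, the collagen chaperone HSP47, stood at 444 and 529 CPM. In fibroblast-like cells Fkbp10 (72.1 and 231 CPM) and Mia3 were higher among 13, and Serpinh1 stood at 1358 and 1438. Of 13 processing and cross-linking genes, none of 3 tested passed in endothelial-like cells, and Loxl1 alone of 10 was lower in fibroblast-like cells. Of 20 collagen and laminin receptors, none of 10 was higher in endothelial-like cells and Lair1 was lower; Itgb1, the common beta chain of these integrins, stood at 967 and 1139 CPM. Of 13 TGF-beta genes, 10 were tested in endothelial-like cells. Ccn2, a target of this pathway, rose from 231.6 to 511.5 CPM (1.14), with Ltbp3 also higher and Tgfb2 and Ltbp4 lower. Over all cells, where 2.61% of all genes were higher and 5.25% lower, 3 of 17 enzymes and chaperones (Plod2, Serpinh1 and Fkbp10), 4 of 11 processing genes (Bmp1, Pcolce, Lox and Loxl2), 2 of 13 TGF-beta genes (Ltbp2 and Ccn2) and none of 19 receptors were higher, and no gene of these lists was lower. At the flox class composition 1 of these 9 genes was still 2-fold higher by the plain cut, Fkbp10 (1.08). Lox went from 1.59 to −0.26, Serpinh1 from 1.08 to 0.22 and Ccn2 from 1.58 to 0.89. For this count too the share of all genes was not computed.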

How the data were processed

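Single-cell RNA was measured in 1 flox and 1 cKO library. The deposited matrices held raw UMI counts per gene and barcode, made by the authors; CASAVA 1.8, STARsolo, Seurat and mm10 are named, without settings, per the submitters' processing notes. Cells needed at least 500 UMIs and 200 genes and at most 25% mitochondrial UMIs, and Scrublet (expected rate 6%) removed 214 flox and 143 cKO doublets. Depth was 67864602 and 70665440 UMIs. Cells were clustered jointly with scanpy 1.11.5 (2000 variable genes, 30 components, 20 neighbours, Leiden) without the 65 matrix symbols. Of 32 clusters, 29 were named from marker lists (at least 3 markers and 25% of a list raised 2-fold and above 10 CPM); these thresholds were revised after clusters were seen. The members and lists were chosen with earlier results of these data known. UMIs were summed per class and library. Intervals were exact Poisson, exact conditional for ratios and Clopper-Pearson for shares. Libraries were compared in classes holding 100 or more cells of each library, and medians used genes with at least 10 UMIs. Oligodendrocyte-like cells were left out of the comparison by a rule on the 10 leading genes of each cluster. In a cluster among them these held 1 marker of another class (Bcas1) and 0 of the oligodendrocyte list. All 8 oligodendrocyte markers were raised in that cluster. The 20 genes with most UMIs, the top 3 per class, genes past the size rule and partner chains are named; a few others were named after their values were seen, and 1 member is counted but not reported individually here. Of 31253 features, 31107 matched GENCODE vM21, which gave coordinates and 3′ GC over the last 500 bases. Upstream sequences are from RefSeq. The ratio script was checked on simulated data. TMM (edgeR 4.0.16) and median-ratio (DESeq2 1.42.0) factors served as scaling alternatives only, beside other weights, filters, clusterings and gates.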

Additional observations from a re-analysis of the deposited data

How the results depend on the processing

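No paired analysis was possible because each group had 1 library, and for the same reason no replicate could be left out. For 64 ratios of named genes, 596 alternatives were run, and 474 counted as the same. That means a called ratio kept its call, or an uncalled one stayed uncalled inside its main counting interval. Another 42 lost the call, 9 gained one, 67 stayed uncalled but left that interval, and 4 called ratios reversed. Under every alternative run, 11 ratios counted as the same. The reversed ratios were in fibroblast-like cells: Col8a2 (−1.14) and Col23a1 (−0.46) with at most 10% mitochondrial UMIs, and Col8a1 (−1.19) and Lama1 (0.40) with single cells gated on markers, which left 3 flox and 11 cKO cells. Gating raised the higher counts to 5 of 29 in mural-like, 8 of 17 in monocyte or macrophage-like and 18 of 35 in microglia-like cells, against 5.13%, 0.878% and 2.02% of all genes under the same gate. Matrix gene medians were then 1.02 and 1.05 in the latter pair, beside 0.01 and −0.01 for all genes. For the other alternatives the share of all genes called was not computed, and the number of matrix genes tested can change with the setting. Their counts are therefore not read as changes of the matrix genes. With equal weight per cell, endothelial-like cells had 2 higher, monocyte or macrophage-like cells 0 lower, and all cells 7 higher and 4 lower. Without a minimum of UMIs the lower counts were 6 in endothelial-like, 7 in mural-like and 2 in monocyte or macrophage-like cells, and microglia-like cells had 4 higher. With at least 100 UMIs, mural-like cells had 0 lower, monocyte or macrophage-like cells 0 higher and microglia-like cells 1 lower. At Leiden resolution 2, monocyte or macrophage-like cells had 1 higher and 0 lower. Against genes of like 3′ GC, microglia-like cells had 1 lower and all cells 1 lower, and with at most 10% mitochondrial UMIs all cells had 1 lower. The share of matrix UMIs in endothelial-, mural- and fibroblast-like cells in flox and cKO was 38.1% and 55.6% at resolution 2, 34.7% and 44.6% with the gate, 39.0% and 56.5% with doublets kept, and 35.5% and 53.8% with at most 10% mitochondrial UMIs. The cause of these changes was not tested beyond the smaller numbers of cells or genes that the filters leave. Calls in the 33 flox fibroblast-like cells are limited by their few UMIs.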
